A study of Mus musculus with 12 samples.

Results

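The TGF-beta and BMP pathway genes described here are 67 of the 54532 genes counted in mouse kidneys. They were chosen by a rule on gene names that holds no measured value, but with earlier results of these data known. They include the TGF-beta, bone morphogenetic protein (BMP), growth differentiation factor (GDF) and activin or inhibin ligands and the latent TGF-beta binding proteins. Further members are the receptors, the Smads, secreted antagonists, *Bambi* and the 4 *Id* genes. RNA was sequenced from whole kidneys of 12 C57BL/6 mice aged 18 days, 3 in each of 4 groups. Noncystic mice were *Pkd1* RC/F with *Pkd2* +/+ or with *Pkd2* Δ17/Δ17, in which CRISPR editing had removed the site for miR-17 within the 3′-UTR of *Pkd2*. Cystic mice carried KspCre beside *Pkd1* RC/F, which gives *Pkd1* RC/-, again with *Pkd2* +/+ or *Pkd2* Δ17/Δ17. All 4 groups therefore share the hypomorphic *Pkd1* RC allele, also the controls. KspCre is driven by the kidney-specific cadherin promoter, which is active in tubule epithelium, so fibroblasts, endothelium and immune cells of cystic kidneys keep the floxed allele.

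Ligands of this family bind a pair of type I and type II receptor kinases. TGF-beta and activin receptors phosphorylate Smad2 and Smad3, BMP receptors phosphorylate Smad1, Smad5 and Smad9, and both kinds of Smad enter the nucleus with Smad4. The TGF-beta arm is known in the kidney for its part in fibrosis and matrix deposition, and the BMP arm for its part in nephron formation, with the *Id* genes as classical BMP targets.

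Total counts ran from 18800307 to 24453033 per mouse, and the 67 members held 47290 to 90850 of them. CPM here are counts scaled to the library total and by TMM factors. *Pkd2* read 194 to 219 CPM in noncystic *Pkd2* +/+ and 271 to 286 CPM in noncystic *Pkd2* Δ17/Δ17 kidneys. It read 213 to 233 CPM in cystic *Pkd2* +/+ and 307 to 337 CPM in cystic *Pkd2* Δ17/Δ17 kidneys, without overlap between *Pkd2* genotypes. Sex is not given in the labels, and every group held libraries with low and with high *Xist*. Proximal tubule markers were present in all 12 libraries, with a summed level of 2003 to 7580 CPM. The 5 adrenal markers summed to 61.9 CPM in cystic *Pkd2* +/+ mouse 27 and 433 CPM in cystic *Pkd2* Δ17/Δ17 mouse 30, against 3.89 to 7.15 CPM in the other 10 libraries.

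Of the 67 members, 61 passed the cutoff (average log2CPM no lower than -3) and were tested. The other 6 (*Fstl4*, *Fstl5*, *Bmp10*, *Gdf1*, *Gdf2* and *Gdf3*) had 0 to 3 reads in every mouse. Values below are likewise CPM scaled by TMM factors. The adjusted p-values come from edgeR's quasi-likelihood test over 24642 genes, and a gene was called at an adjusted p under 0.05. Per kilobase of exon, *Id3* had the highest level of the members in noncystic *Pkd2* +/+ kidneys (104 ± 6.97 CPM per kb, mean ± SD, n = 3), followed by *Id1* (88.8 ± 8.13), *Fstl1* (79.99 ± 4.30) and *Id2* (73.8 ± 8.51), where neighbours from *Id1* to *Id2* lay within their spread. In cystic *Pkd2* +/+ kidneys *Fstl1* was first (165 ± 8.91) and *Id3* second (102 ± 2.46). All 3 TGF-beta ligands were below these, with 7.98 ± 0.515 CPM per kb for *Tgfb1*, 1.66 ± 0.373 for *Tgfb2* and 1.53 ± 0.203 for *Tgfb3*.

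The first comparison asked how pathway transcripts differ between cystic and noncystic kidneys with an intact *Pkd2* 3′-UTR. In cystic *Pkd2* +/+ kidneys 25 of the 61 tested members were higher and 7 lower, 32 in all (52.5%), and with library totals in place of TMM factors 31 were higher and 6 lower. Over all tested genes 31.1% were called, 16.9% as higher and 14.2% as lower. At an average log2CPM of 1 or more, 29 of 49 members were called (59.2%) against 48.7% of all such genes. The median log2 fold change was 0.21 for the members and 0.019 for all tested genes. In whole-kidney RNA, fewer cells of a type and less RNA per cell cannot be told apart.

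**Figure D1:**
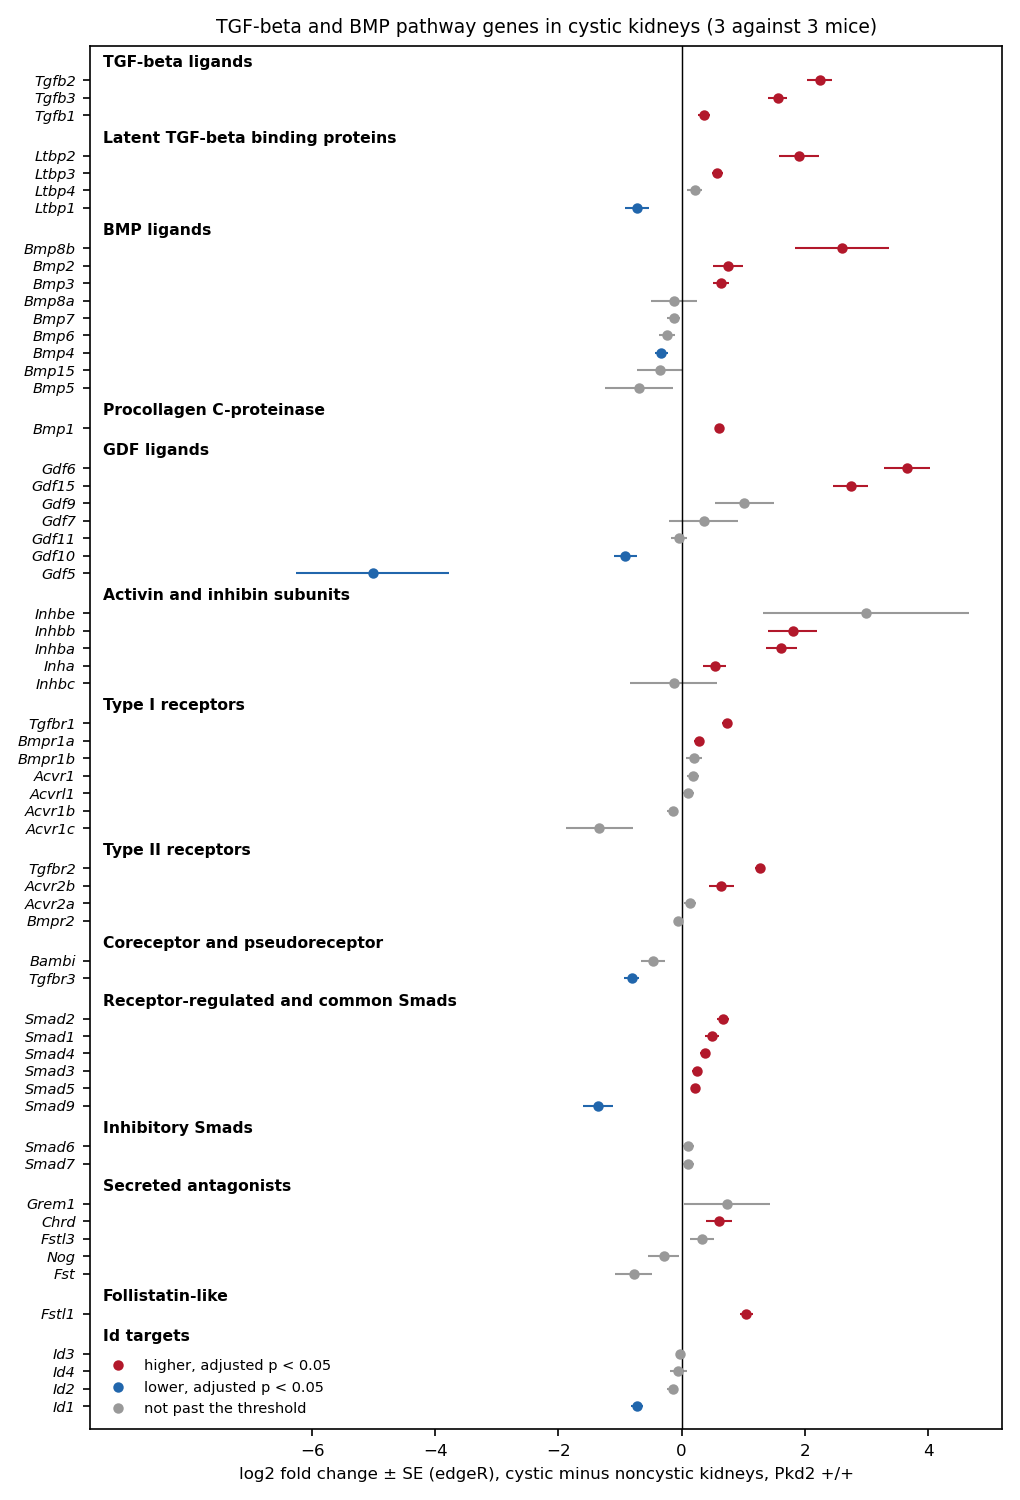
Log2 fold change ± SE (edgeR) of 60 of the 61 tested members between 3 cystic and 3 noncystic *Pkd2* +/+ mice, grouped by role and ordered by size within a role. Red points are the 25 members that were higher, blue points the 7 that were lower, and grey points those that did not pass the threshold.

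All 3 TGF-beta ligands were higher in cystic kidneys, *Tgfb2* and *Tgfb3* by more than *Tgfb1*. *Tgfb2* read 11.8, 9.41 and 7.53 CPM in noncystic and 39.4, 47.2 and 49.2 CPM in cystic *Pkd2* +/+ mice, a 4.72-fold difference with a log2 fold change of 2.24 ± 0.20 (SE; edgeR, adjusted p = 3.31e-07). Every cystic mouse was above every noncystic mouse. *Tgfb3* read 5.04, 5.93 and 4.58 CPM and 15.5, 14 and 16.2 CPM, again without overlap, with a log2 fold change of 1.56 ± 0.16 (SE; edgeR, adjusted p = 1.31e-06). Of the *Tgfb3* exons, 12.4% lie opposite genes on the other strand. *Tgfb1*, the ligand with the highest level per kb, read 39, 43.2 and 38.5 CPM against 42.5, 57.6 and 55.5 CPM, with a log2 fold change of 0.36 ± 0.10 (SE; edgeR, adjusted p = 0.011). Cystic mouse 25 lay below the highest noncystic mouse, and the call for *Tgfb1* was lost without mouse 21, 26 or 27 (adjusted p = 0.058, 0.059 and 0.054 with edgeR).

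**Figure D2:**
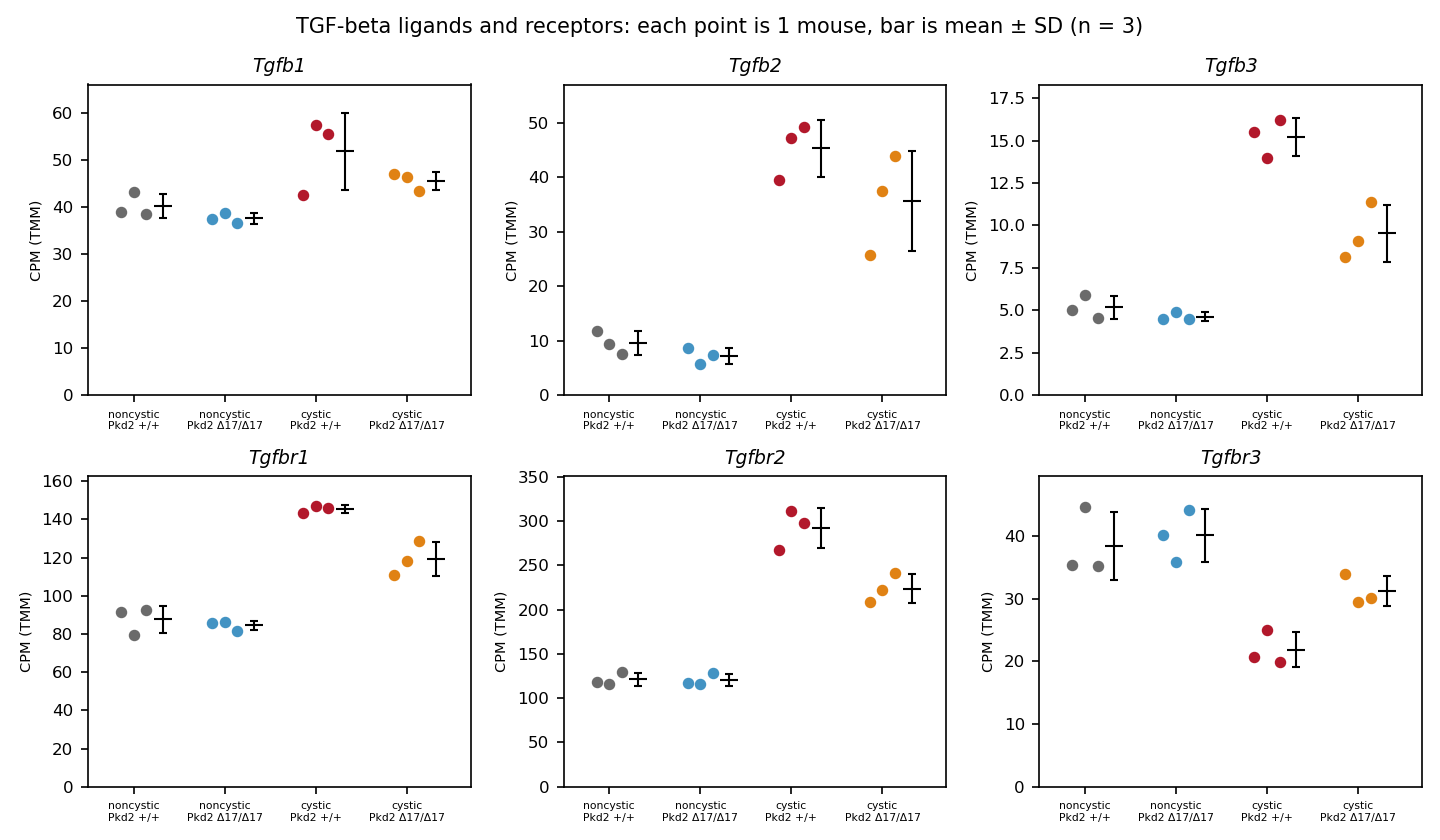
CPM scaled by TMM factors for the 3 TGF-beta ligands and 3 TGF-beta receptors. Points are single mice in the 4 groups and black bars are mean ± SD (n = 3). *Tgfb2*, *Tgfb3*, *Tgfbr1* and *Tgfbr2* were higher and *Tgfbr3* lower in every cystic mouse than in every noncystic one.

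Scaled by exon length, *Tgfb2* held a larger share of the ligand transcripts in cystic mice. *Tgfb1* made up 68.6 to 74.2% of the summed ligand CPM per kb in the 3 noncystic *Pkd2* +/+ mice and 42.6 to 48.1% in the 3 cystic ones. The share of *Tgfb2* was 12.6 to 18.1% against 34.3 to 35%, and that of *Tgfb3* was 13.2 to 14.7% against 17.5 to 23.1%. Groups did not overlap for any of the 3 shares, which are values within a mouse and carry no test.

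**Figure D3:**
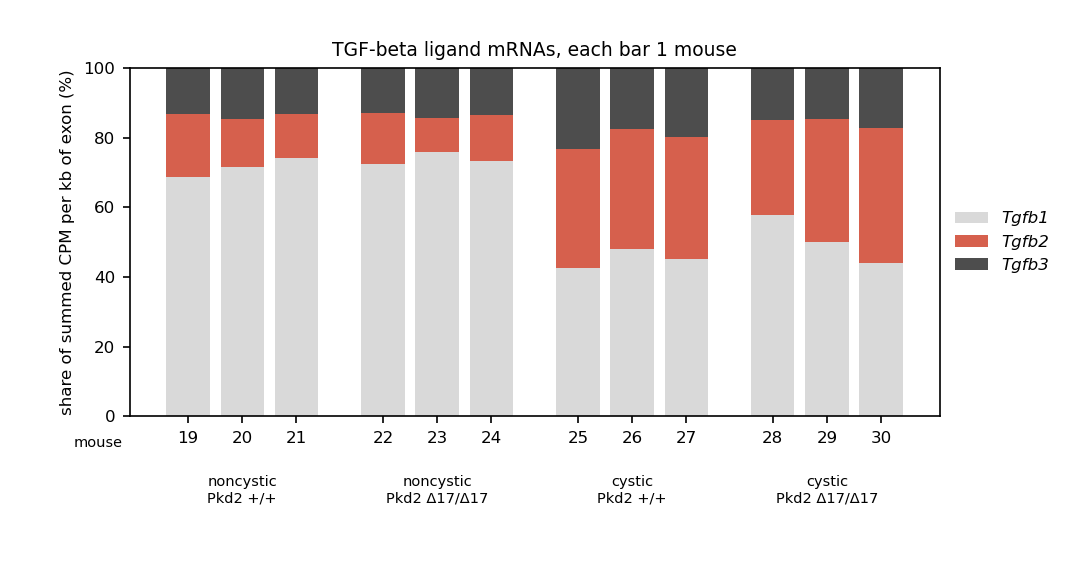
Share of *Tgfb1*, *Tgfb2* and *Tgfb3* in their summed CPM per kb of exon, one bar for each of the 12 mice. *Tgfb1* ranged from 68.6 to 76% without KspCre and from 42.6 to 57.7% with it.

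The latent TGF-beta binding proteins, which hold secreted TGF-beta in the matrix, went both ways. *Ltbp2* read 3.32, 7.76 and 3.71 CPM in noncystic and 20.6, 17.04 and 17.6 CPM in cystic *Pkd2* +/+ mice (log2 fold change of 1.91 ± 0.33 SE, edgeR, adjusted p = 0.00023). *Ltbp3* read 147, 137 and 148 CPM against 207, 200 and 238 CPM (log2 fold change of 0.58 ± 0.093 SE, edgeR, adjusted p = 0.00012). Both were higher in every cystic mouse, while *Ltbp1* was lower in every cystic mouse. *Ltbp1* read 86.98, 85.9 and 70.2 CPM against 32.6, 69.1 and 45.8 CPM (log2 fold change of -0.72 ± 0.19 SE, edgeR, adjusted p = 0.0077), with a wide spread among the cystic mice. *Ltbp4* read 185, 202 and 252 CPM against 207, 269 and 264 CPM and was not called (log2 fold change of 0.21 ± 0.12 SE, edgeR, adjusted p = 0.23), but was called with library totals in place of TMM factors (log2 fold change 0.37).

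Among the TGF-beta receptors, the type II receptor *Tgfbr2* had the smallest adjusted p of all members. It read 118, 116 and 129 CPM in noncystic and 268, 312 and 298 CPM in cystic *Pkd2* +/+ mice, 2.41-fold higher (log2 fold change of 1.27 ± 0.085 SE, edgeR, adjusted p = 2.80e-08). The type I receptor *Tgfbr1* read 91.3, 79.5 and 92.3 CPM against 143, 147 and 146 CPM (log2 fold change of 0.73 ± 0.076 SE, edgeR, adjusted p = 1.76e-06). Both kinase receptors were higher in all cystic mice, whereas *Tgfbr3*, the coreceptor betaglycan that presents *Tgfb2* protein, was lower. *Tgfbr3* read 35.4, 44.6 and 35.2 CPM against 20.6, 25.02 and 19.96 CPM (log2 fold change of -0.81 ± 0.12 SE, edgeR, adjusted p = 5.06e-05).

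Of the BMP and activin receptors 2 were called. *Bmpr1a*, a type I BMP receptor, read 87.1, 88.2 and 83.9 CPM against 102, 119 and 94.5 CPM (log2 fold change of 0.28 ± 0.079 SE, edgeR, adjusted p = 0.011), and its call was lost without mouse 21 or 26 (adjusted p = 0.059 and 0.074 with edgeR). *Acvr2b*, an activin type II receptor, had a log2 fold change of 0.64 ± 0.20 (SE; edgeR, adjusted p = 0.022), which reached an adjusted p of 0.081 without mouse 25 and of 0.071, 0.051 and 0.055 without mouse 19, 20 or 21. *Acvr1c*, a type I receptor for activin and Nodal, read 2.70, 3.08 and 1.93 CPM against 1.12, 0.392 and 1.51 CPM and was not called by edgeR (log2 fold change of -1.34 ± 0.55 SE, edgeR, adjusted p = 0.076), although the groups did not overlap and DESeq2 called it. *Bmpr2*, the BMP type II receptor, was not called (log2 fold change of -0.063 ± 0.066 SE, edgeR, adjusted p = 0.53, 95% interval -0.20 to 0.077). Of the 11 type I and type II receptors, 4 were higher, none was lower and 7 were not called. With library totals *Acvr1*, *Acvrl1* and *Acvr2a* were called as well, at log2 fold changes of 0.35, 0.27 and 0.29.

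All 6 receptor-regulated and common Smads were called, 5 higher and *Smad9* lower. *Smad2* read 30.01, 33.9 and 33.6 CPM in noncystic and 50.6, 57.1 and 47.5 CPM in cystic *Pkd2* +/+ mice (log2 fold change of 0.67 ± 0.097 SE, edgeR, adjusted p = 4.30e-05). *Smad4*, the common partner, read 63.1, 62.2 and 67.7 CPM against 79.5, 85.03 and 85.4 CPM (log2 fold change of 0.37 ± 0.070 SE, edgeR, adjusted p = 0.00055). *Smad1* of the BMP arm read 26.6, 31.7 and 27.8 CPM against 37.8, 44.8 and 38.7 CPM (log2 fold change of 0.49 ± 0.11 SE, edgeR, adjusted p = 0.0022). For these 3 Smads every cystic mouse was above every noncystic mouse. The differences of *Smad3* (log2 fold change of 0.25 ± 0.082 SE, edgeR, adjusted p = 0.026) and *Smad5* (log2 fold change of 0.22 ± 0.066 SE, edgeR, adjusted p = 0.018) were smaller. *Smad3* lost its call without mouse 19, 20 or 26 (adjusted p = 0.063, 0.15 and 0.15 with edgeR). *Smad5* read 87.3, 88.7 and 89.99 CPM against 103, 108 and 98.4 CPM and lost its call without mouse 19, 20, 21 or 26 (adjusted p = 0.061, 0.079, 0.051 and 0.073 with edgeR). Its call was also lost with no cutoff on low counts and in a fit of the compared groups only.

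*Smad9*, a Smad of the BMP arm, went the other way. It read 3.12, 2.62 and 2.59 CPM in noncystic and 0.774, 1.32 and 1.18 CPM in cystic *Pkd2* +/+ mice, 2.56-fold lower (log2 fold change of -1.36 ± 0.24 SE, edgeR, adjusted p = 0.00036). These CPM rest on 46 to 60 reads per noncystic mouse and 20 to 27 reads per cystic mouse. The inhibitory Smads, which are induced by and damp the pathway, were not called. *Smad7* read 42.9, 44.6 and 54.6 CPM against 48.6, 48.6 and 55.8 CPM (log2 fold change of 0.10 ± 0.098 SE, edgeR, adjusted p = 0.47, 95% interval -0.10 to 0.31), and *Smad6* had a log2 fold change of 0.10 ± 0.092 (SE; edgeR, adjusted p = 0.44). With library totals both were called, at log2 fold changes of 0.27 and 0.26, since that scaling raised the median of all genes in cystic against noncystic *Pkd2* +/+ kidneys by 0.16 on the log2 scale, and by 0.15 in the same comparison with *Pkd2* Δ17/Δ17.

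**Figure D4:**
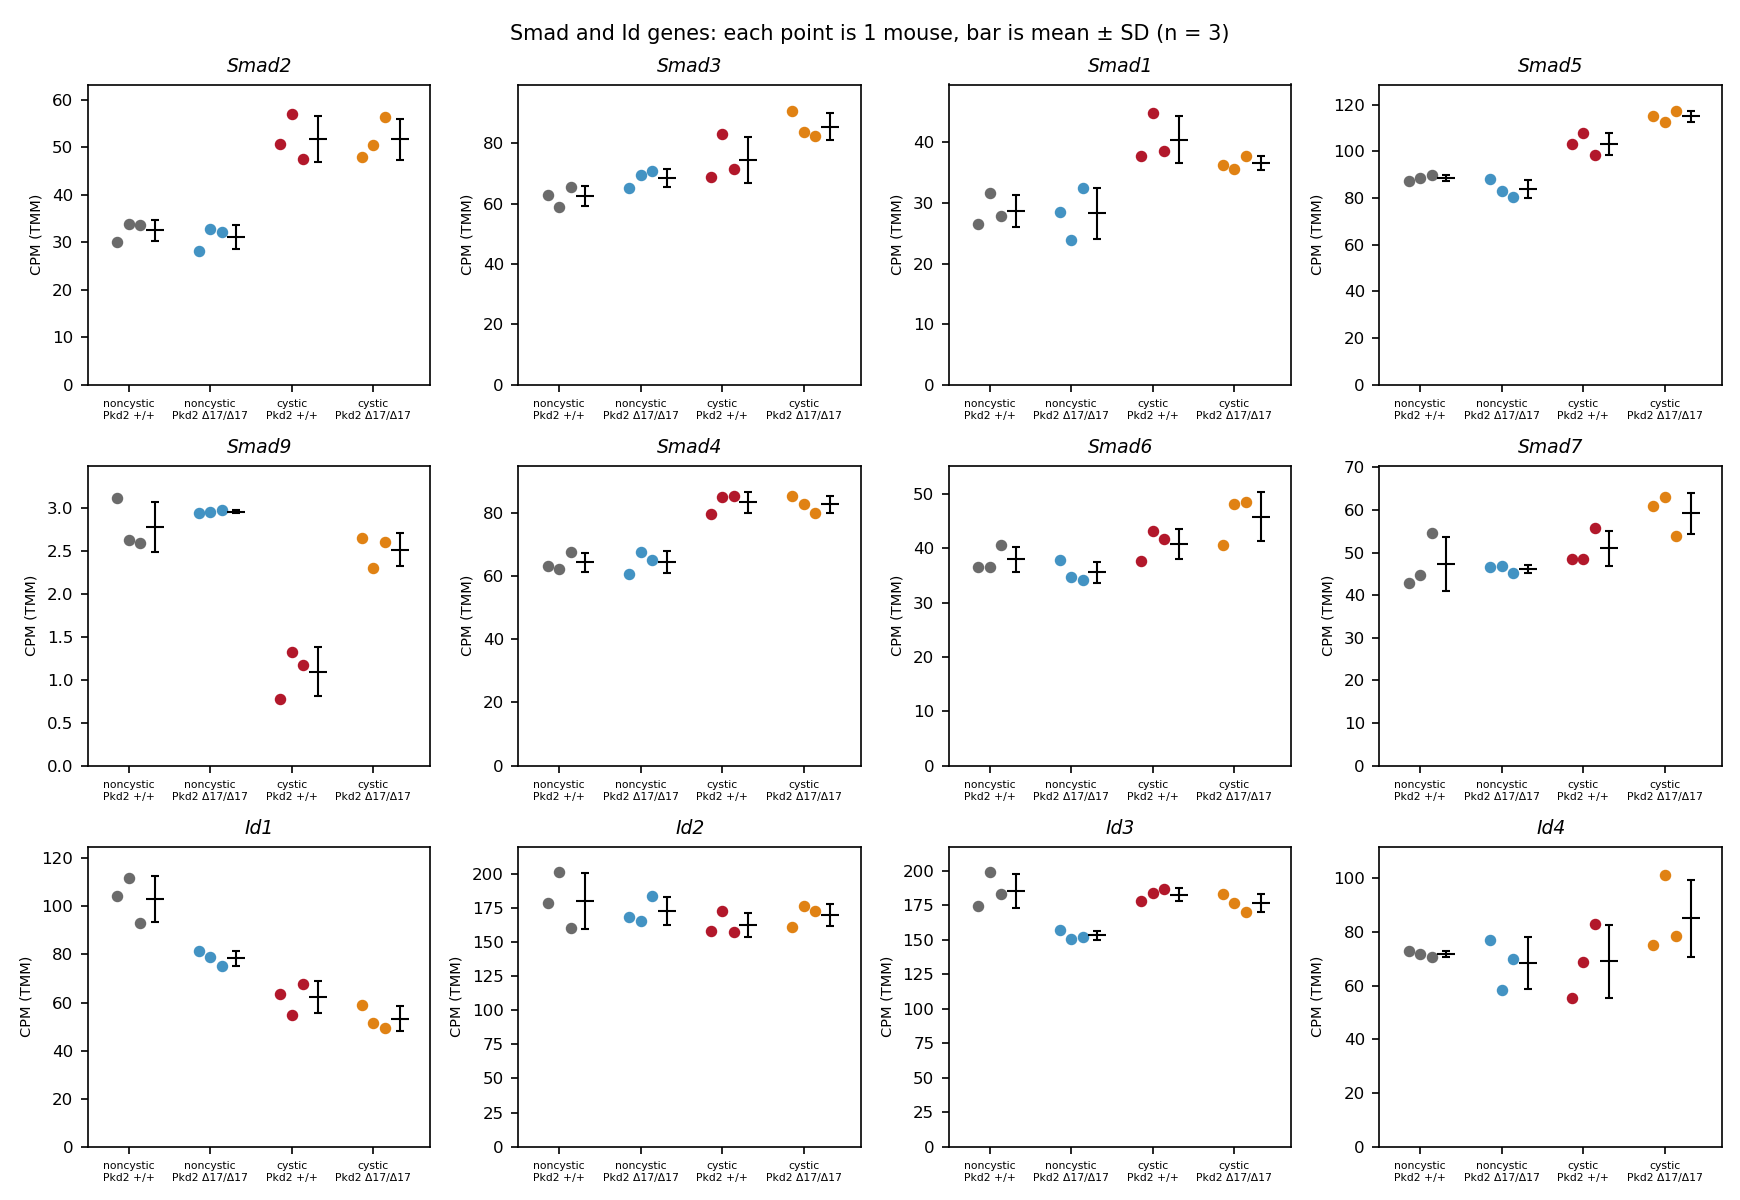
CPM scaled by TMM factors for the 8 Smads and 4 *Id* genes in the 4 groups. Points are single mice and black bars mean ± SD (n = 3). *Smad9* stood at 0.774 to 1.32 CPM in cystic *Pkd2* +/+ mice and at 2.30 to 3.12 CPM in all other mice.

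Of the BMP targets, *Id1* was lower in cystic kidneys and the other 3 *Id* genes were not called, under TMM factors and under library totals. *Id1* read 104, 112 and 92.9 CPM in noncystic and 63.7, 54.8 and 67.8 CPM in cystic *Pkd2* +/+ mice (log2 fold change of -0.73 ± 0.094 SE, edgeR, adjusted p = 1.45e-05). The groups did not overlap. *Id2* read 179, 201 and 160 CPM against 158, 173 and 157 CPM (log2 fold change of -0.14 ± 0.087 SE, edgeR, adjusted p = 0.24). *Id3* read 175, 199 and 183 CPM against 178, 184 and 187 CPM (log2 fold change of -0.021 ± 0.071 SE, edgeR, adjusted p = 0.86). *Id4* read 72.7, 71.6 and 70.5 CPM against 55.4, 68.7 and 82.8 CPM (log2 fold change of -0.055 ± 0.14 SE, edgeR, adjusted p = 0.81). The signs of *Id2*, *Id3* and *Id4* turned with library totals, at log2 fold changes of 0.013, 0.14 and 0.10.

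The BMP ligands had no common direction, with 3 of 9 tested higher, 1 lower and 5 not called. *Bmp3* read 9.92, 10.8 and 12.3 CPM in noncystic and 17.4, 18.9 and 14.9 CPM in cystic *Pkd2* +/+ mice (log2 fold change of 0.64 ± 0.13 SE, edgeR, adjusted p = 0.00093), without overlap. *Bmp2* was also higher (log2 fold change of 0.75 ± 0.24 SE, edgeR, adjusted p = 0.027), but its call was lost without any one of 5 of the 6 mice (19, 20, 21, 26 and 27, adjusted p = 0.057 to 0.10). *Bmp4* was lower (log2 fold change of -0.33 ± 0.10 SE, edgeR, adjusted p = 0.021), but not with library totals (log2 fold change -0.17) and not without mouse 19, 21 or 25 (adjusted p = 0.13, 0.058 and 0.068). *Bmp7*, a ligand needed for nephron formation, read 78.2, 65.6 and 75.1 CPM against 66.8, 65.8 and 67.3 CPM (log2 fold change of -0.13 ± 0.099 SE, edgeR, adjusted p = 0.36), and its sign turned with library totals (0.026). *Bmp8b* was called higher (log2 fold change of 2.60 ± 0.76 SE, edgeR, adjusted p = 0.015) on 0 to 8 reads per noncystic and 20 to 51 per cystic mouse. It was not called without mouse 19, 21 or 25 (adjusted p = 0.051, 0.058 and 0.051 with edgeR). *Bmp8b* is a near copy of *Bmp8a*, so that some reads could match both genes. *Bmp1*, which despite its name is a protease that trims procollagen, read 84.2, 80.9 and 85.97 CPM against 122, 130 and 131 CPM (log2 fold change of 0.61 ± 0.074 SE, edgeR, adjusted p = 8.22e-06), with every cystic mouse higher.

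The GDF ligands held the members with the largest differences. *Gdf15*, a secreted stress-response factor, read 13.3, 11.8 and 11.2 CPM in noncystic and 79.9, 81.5 and 81.7 CPM in cystic *Pkd2* +/+ mice, 6.70-fold higher (log2 fold change of 2.74 ± 0.28 SE, edgeR, adjusted p = 1.48e-06). *Gdf6*, a BMP-like ligand of skeletal development, read 0.415, 0.228 and 0.203 CPM against 4.57, 2.60 and 3.72 CPM (log2 fold change of 3.65 ± 0.37 SE, edgeR, adjusted p = 1.41e-06), on 4 to 8 reads per noncystic and 53 to 118 reads per cystic mouse. Both were higher in every cystic mouse, the second at a low level throughout. *Gdf10* read 10.2, 10.1 and 10.02 CPM against 5.54, 5.43 and 5.13 CPM and was lower (log2 fold change of -0.91 ± 0.19 SE, edgeR, adjusted p = 0.0011). *Gdf5* had 37 reads over the 3 noncystic and 1 read over the 3 cystic *Pkd2* +/+ mice, read 0.208, 1.31 and 0.509 CPM against 0.0387, 0 and 0 CPM and was called lower (edgeR, adjusted p = 0.0049). Its log2 fold change was -5.01 ± 1.24 (SE; edgeR, 95% interval -7.64 to -2.38). The ratio of its summed reads per library size was 0.0226, with an exact 95% counting interval of 0.000557 to 0.134. The counting interval takes reads as units and leaves out the spread between mice. Of the *Gdf5* exons 40.3% overlap *Gm15557* on the other strand.

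Activin and inhibin subunits were higher in cystic kidneys where they were called. *Inhba*, the activin A subunit, read 4.10, 3.42 and 2.44 CPM in noncystic and 7.12, 13.3 and 10.3 CPM in cystic *Pkd2* +/+ mice (log2 fold change of 1.62 ± 0.25 SE, edgeR, adjusted p = 9.79e-05). *Inhbb*, the activin B subunit, read 2.18, 4.56 and 3.87 CPM against 6.89, 19.9 and 10.4 CPM (log2 fold change of 1.80 ± 0.40 SE, edgeR, adjusted p = 0.0021), with the highest value in mouse 26. *Inha*, the inhibin subunit, read 8.26, 6.62 and 7.63 CPM against 13.1, 7.74 and 11.7 CPM (log2 fold change of 0.53 ± 0.18 SE, edgeR, adjusted p = 0.036). Mouse 26 lay within the noncystic range for *Inha*, and the call was lost without mouse 20, 21, 25 or 27 (adjusted p = 0.15, 0.083, 0.17 and 0.11). It was also lost in a fit of the compared groups only. Inhibin is also made in the adrenal gland, whose markers summed to 61.9 CPM in mouse 27. They summed to 4.37 CPM in mouse 25, which had the highest *Inha* of the cystic *Pkd2* +/+ mice. Without mice 27 and 30 the log2 fold change of *Inha* was 0.48. The part of adrenal tissue in the *Inha* value was not tested.

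Secreted antagonists of BMP and activin were mostly not called, with 1 of 6 higher and none lower. *Chrd*, the BMP trap chordin, was higher (log2 fold change of 0.60 ± 0.21 SE, edgeR, adjusted p = 0.038), but not without mouse 19, 20, 21, 25 or 27 (adjusted p = 0.072 to 0.14). *Fstl1*, a secreted glycoprotein of mesenchymal cells, read 407, 403 and 369 CPM against 770, 857 and 812 CPM, 2.07-fold higher without overlap (log2 fold change of 1.05 ± 0.11 SE, edgeR, adjusted p = 1.23e-06).

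Genes known to be induced by TGF-beta, listed apart from the members except for *Smad7*, were higher where called. Of 20 such genes 14 were higher, none lower and 6 not called, *Smad7* among the last, with a median log2 fold change of 0.81 in cystic *Pkd2* +/+ kidneys. Over all tested genes 16.9% were higher and 14.2% lower. At an average log2CPM of 1 or more, 48.7% of all genes were called. The examples are *Fn1* (1.33 ± 0.13, adjusted p = 8.80e-07), which encodes fibronectin, *Col1a1* (1.47 ± 0.15, adjusted p = 1.41e-06) and *Acta2* (2.05 ± 0.19, adjusted p = 5.07e-07), which encodes smooth muscle actin. *Ccn2*, a matrix-associated protein often used as a readout of TGF-beta, was not called (0.20 ± 0.17, adjusted p = 0.42). Of the 20, 10 also stand among the members, the other regulators or the fibroblast and mural cell markers. Regulators outside the members showed 9 higher and 6 lower of 36 tested. Among them were *Thbs1* (1.09 ± 0.17, edgeR, adjusted p = 7.31e-05), an activator of latent TGF-beta, and *Sostdc1* (-1.01 ± 0.099, edgeR, adjusted p = 8.72e-07), a BMP antagonist of the kidney. The integrin subunit *Itgb8* of the same list went the other way from *Thbs1*. It read 116.5 to 139.2 CPM in noncystic and 62.7 to 82.2 CPM in cystic *Pkd2* +/+ mice. For *Itgav* the values were 122.9 to 154.5 against 122.9 to 126.9 CPM.

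Markers of other cells moved in the same kidneys. All 7 macrophage markers were higher, with a summed level of 143 to 150 CPM in noncystic and 338 to 487 CPM in cystic *Pkd2* +/+ mice, and none was at 0. Of the 5 myofibroblast and mural cell markers 4 were higher (202 to 310 against 561 to 881 CPM). Of the 6 endothelial markers 4 were lower (969 to 1104 against 596 to 764 CPM), and all 5 proximal tubule markers were lower (5730 to 7301 against 2003 to 3062 CPM). Podocyte markers were lower for 4 of 5 and higher for 1, thick ascending limb and distal tubule markers lower for 3 of 4, red blood cell markers lower for 5 of 5 and fat markers lower for 3 of 4 and higher for 1. Fibroblast markers (3 higher, 2 lower of 7), lymphocyte markers (2 higher, 1 lower of 6) and collecting duct markers (2 higher, 1 lower of 5) went both ways, and none of the 5 adrenal markers was called. The part of these cells in the members' differences was not tested. Without mice 27 and 30, the mice with adrenal transcripts, 28 members were called (21 higher, 7 lower), with *Bmp2*, *Chrd*, *Inha* and *Tgfb1* lost.

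The second comparison asked what loss of the miR-17 site of *Pkd2* did in cystic kidneys. Between cystic *Pkd2* Δ17/Δ17 and cystic *Pkd2* +/+ kidneys 5 of 61 members were called (8.2%), 2 higher and 3 lower, against 2.23% of all tested genes, 1.19% higher and 1.04% lower. At an average log2CPM of 1 or more, 4 of 49 were called, against 3.78% of all such genes. The cystic *Pkd2* +/+ mice are also the cystic mice of the first comparison, so the values of the 2 comparisons are tied and are given side by side only. *Tgfb3*, *Gdf6* and *Tgfbr2* were lower with the deletion, and *Tgfbr3* and *Smad9* were higher.

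*Tgfb3* read 15.5, 14 and 16.2 CPM in cystic *Pkd2* +/+ and 8.12, 9.10 and 11.4 CPM in cystic *Pkd2* Δ17/Δ17 mice (log2 fold change of -0.67 ± 0.15 SE, edgeR, adjusted p = 0.029). *Tgfbr2* read 268, 312 and 298 CPM against 208, 222 and 241 CPM (log2 fold change of -0.39 ± 0.084 SE, edgeR, adjusted p = 0.024). *Gdf6* read 4.57, 2.60 and 3.72 CPM against 1.15, 1.71 and 1.68 CPM (log2 fold change of -1.26 ± 0.30 SE, edgeR, adjusted p = 0.038). For these 3 genes all Δ17/Δ17 mice lay below all +/+ mice and above all noncystic mice. *Tgfbr3* read 20.6, 25.02 and 19.96 CPM against 33.99, 29.5 and 30.2 CPM (log2 fold change of 0.52 ± 0.12 SE, edgeR, adjusted p = 0.032). *Smad9* read 0.774, 1.32 and 1.18 CPM against 2.64, 2.30 and 2.60 CPM (log2 fold change of 1.21 ± 0.24 SE, edgeR, adjusted p = 0.018), on 20 to 27 against 47 to 55 reads per mouse. *Smad9* in the Δ17/Δ17 mice lay close to the noncystic *Pkd2* +/+ range of 2.59 to 3.12 CPM, and *Tgfbr3* stayed below the noncystic range.

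These 5 calls depended on single mice. Without mouse 27, 28 or 29, 0 of 61 members were called by edgeR, with 11, 13 and 15 at an unadjusted p under 0.05. In a fit of the 6 cystic mice alone none was called either (20 at an unadjusted p under 0.05), with adjusted p of 0.065 to 0.087 for the 5 genes. *Gdf6* was also not called by limma-trend with library totals or with *Xist* as covariate, where *Tgfb3*, *Tgfbr2*, *Tgfbr3* and *Smad9* were. Without mouse 25 *Tgfb3*, *Tgfbr2* and *Smad9* were called. Without mouse 26 the call for *Tgfbr2* was lost, without mouse 30 that for *Gdf6*, and without mice 27 and 30 together only *Ltbp2* was called (log2 fold change -1.37, adjusted p = 0.036). In that last fit the log2 fold changes of the 5 were -0.78 for *Tgfb3*, -0.43 for *Tgfbr2*, -1.32 for *Gdf6*, 0.48 for *Tgfbr3* and 1.25 for *Smad9*. No direction of the 5 turned in any of these fits.

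Just outside the threshold were *Ltbp1*, *Tgfbr1* and *Bmp3*. *Ltbp1* read 32.6, 69.1 and 45.8 CPM in cystic *Pkd2* +/+ and 88.4, 87.1 and 72.5 CPM in cystic *Pkd2* Δ17/Δ17 mice (log2 fold change of 0.75 ± 0.19 SE, edgeR, adjusted p = 0.051), and was called with library totals, by edgeR and by limma-trend, and without mouse 26 or 30. *Tgfbr1* read 143, 147 and 146 CPM against 111, 118 and 128 CPM (log2 fold change of -0.29 ± 0.075 SE, edgeR, adjusted p = 0.06), and was called by DESeq2, with edgeR's own filter or no cutoff on low counts, and without mouse 30. *Bmp3* read 17.4, 18.9 and 14.9 CPM against 13.5, 12.2 and 12.3 CPM (log2 fold change of -0.44 ± 0.13 SE, edgeR, adjusted p = 0.089), and was called by DESeq2. In each the 2 cystic genotypes did not overlap. At an unadjusted p under 0.05 there were 22 of 61 members, against 3532 of 24642 genes.

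Many members that differed between cystic and noncystic kidneys did not pass the test between the cystic genotypes. *Gdf15* read 79.9, 81.5 and 81.7 CPM in cystic *Pkd2* +/+ and 38.1, 83.8 and 105 CPM in cystic *Pkd2* Δ17/Δ17 mice (log2 fold change of -0.098 ± 0.25 SE, edgeR, adjusted p = 0.91, 95% interval -0.63 to 0.44), with mouse 28 lowest. *Tgfb2* read 39.4, 47.2 and 49.2 CPM against 25.7, 37.5 and 43.8 CPM (log2 fold change of -0.34 ± 0.18 SE, edgeR, adjusted p = 0.42, 95% interval -0.73 to 0.040). The genotypes overlapped for both. The intervals were narrower for *Fstl1* (log2 fold change of -0.092 ± 0.10 SE, edgeR, adjusted p = 0.77, 95% interval -0.31 to 0.13), *Smad2* (log2 fold change of -0.001 ± 0.095 SE, edgeR, adjusted p = 1, 95% interval -0.20 to 0.20) and *Smad4* (log2 fold change of -0.011 ± 0.070 SE, edgeR, adjusted p = 0.98, 95% interval -0.16 to 0.14). *Id1* read 59.04, 51.4 and 49.5 CPM in cystic *Pkd2* Δ17/Δ17 mice, with a log2 fold change of -0.22 ± 0.095 (SE; edgeR, adjusted p = 0.29).

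Other transcripts also differed between the cystic genotypes, where 2.23% of all tested genes were called. Of the 20 TGF-beta induced genes 1, *Vim*, was lower (-0.35 ± 0.079, adjusted p = 0.028), and of 36 other regulators 1, *Sostdc1*, was higher (0.39 ± 0.098, adjusted p = 0.049). Macrophage markers were lower for 4 of 7, with a summed level of 338 to 487 CPM in cystic *Pkd2* +/+ and 252 to 329 CPM in cystic *Pkd2* Δ17/Δ17 mice. Among 6 endothelial markers *Tek* was higher, and among 5 proximal tubule markers 2 were. Of 4 thick ascending limb and distal tubule markers 1, *Slc12a1*, was higher (0.93 ± 0.10, adjusted p = 0.0007), with a summed level of 1740 to 2281 CPM in cystic *Pkd2* +/+ and 3271 to 3492 CPM in cystic *Pkd2* Δ17/Δ17 mice. Their part in the 5 calls was not tested.

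The third comparison was that of the deletion in noncystic kidneys. None of the 61 members was called between noncystic *Pkd2* Δ17/Δ17 and *Pkd2* +/+ kidneys by edgeR, by limma-trend with library totals or by DESeq2, with 6, 4 and 4 at an unadjusted p under 0.05. Of all tested genes 0.00406% were called by edgeR, and 1555 of 24642 had an unadjusted p under 0.05 by edgeR. *Id1* had the smallest unadjusted p of the members, with 104, 112 and 92.9 CPM against 81.4, 78.8 and 75.04 CPM (log2 fold change of -0.39 ± 0.094 SE, edgeR, adjusted p = 0.77). *Id3* read 175, 199 and 183 CPM against 157, 151 and 152 CPM (log2 fold change of -0.28 ± 0.071 SE, edgeR, adjusted p = 0.77). Both were lower in every Δ17/Δ17 mouse without passing the adjusted threshold. For *Tgfbr2* the log2 fold change was -0.010, with a 95% interval of -0.19 to 0.17.

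The fourth comparison set cystic against noncystic kidneys within *Pkd2* Δ17/Δ17 and had no mouse in common with the first. Here 24 members were higher and 5 lower, 29 of 61, against 23% of all tested genes, 12.8% higher and 10.2% lower. With library totals the split was 31 higher and 2 lower. At an average log2CPM of 1 or more, 28 of 49 were called, against 37.7% of all such genes. In both comparisons 21 members were called in the same direction, 65.6% of those called with *Pkd2* +/+ and 72.4% of those called with *Pkd2* Δ17/Δ17, and none in opposite directions. For all tested genes these shares were 63 and 85%.

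*Tgfb2* read 8.61, 5.67 and 7.43 CPM in noncystic and 25.7, 37.5 and 43.8 CPM in cystic *Pkd2* Δ17/Δ17 mice (log2 fold change of 2.30 ± 0.20 SE, edgeR, adjusted p = 1.03e-06). *Gdf15* read 13.3, 25.4 and 17.8 CPM against 38.1, 83.8 and 105 CPM (log2 fold change of 2.01 ± 0.27 SE, edgeR, adjusted p = 4.41e-05). *Fstl1* read 392, 283 and 311 CPM against 761, 791 and 737 CPM (log2 fold change of 1.21 ± 0.11 SE, edgeR, adjusted p = 9.74e-07). All cystic mice were above all noncystic mice for these 3, and for *Tgfbr2* (log2 fold change of 0.90 ± 0.085 SE, edgeR, adjusted p = 1.96e-06), *Smad2* (log2 fold change of 0.73 ± 0.097 SE, edgeR, adjusted p = 3.73e-05) and *Inhba* (log2 fold change of 1.75 ± 0.26 SE, edgeR, adjusted p = 8.74e-05). *Smad9* was not called here (log2 fold change of -0.23 ± 0.23 SE, edgeR, adjusted p = 0.54, 95% interval -0.72 to 0.25), nor was *Ltbp1* (log2 fold change of 0.022 ± 0.19 SE, edgeR, adjusted p = 0.96, 95% interval -0.38 to 0.42).

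Of the TGF-beta ligands *Tgfb3* was also higher (log2 fold change of 1.04 ± 0.16 SE, edgeR, adjusted p = 0.00015), while *Tgfb1* read 37.5, 38.7 and 36.6 CPM against 47.1, 46.3 and 43.4 CPM and was not called (log2 fold change of 0.28 ± 0.10 SE, edgeR, adjusted p = 0.061). *Id1* was lower (log2 fold change of -0.56 ± 0.095 SE, edgeR, adjusted p = 0.00036). *Fstl3* (log2 fold change of 0.95 ± 0.19 SE, edgeR, adjusted p = 0.0013), an activin-binding antagonist, was higher and *Bmp6* (log2 fold change of -0.57 ± 0.13 SE, edgeR, adjusted p = 0.0029), an iron-regulating BMP ligand, was lower, although 47.3% of the *Fstl3* exons overlap *Prss57*. Calls near the threshold depended on single mice: *Acvr1* lost its call without mouse 22, 23, 24, 29 or 30 (adjusted p up to 0.21), *Bmp4* without mouse 22, 23, 28, 29 or 30 (up to 0.16), *Tgfbr3* without mouse 22, 24, 29 or 30 (up to 0.16), *Gdf10* without mouse 23, 29 or 30 (up to 0.16), *Smad1* without mouse 22, 23 or 30 (up to 0.15), and *Bmpr1a* (up to 0.15), *Bmpr1b* (up to 0.20) and *Id3* (up to 0.17) without any one of the 6. In the same kidneys macrophage markers were higher for 7 of 7, myofibroblast and mural cell markers for 3 of 5 and fibroblast markers for 4 of 7. Adrenal markers were called higher for 5 of 5, but their sum was 433 CPM in mouse 30 against 5.96 and 5.33 CPM in mice 28 and 29. Proximal tubule markers were lower for 5 of 5, red blood cell markers for 5 of 5, podocyte markers for 4 of 5 and endothelial markers for 3 of 6. Thick ascending limb and distal tubule markers were lower for 2 of 4 and lymphocyte markers for 1 of 6. Fat markers (1 higher, 2 lower of 4) and collecting duct markers (1 higher, 1 lower of 5) went both ways. Their part in the members' differences was not tested. Without mice 27 and 30 there were 21 calls (19 higher, 2 lower).

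The inhibitory Smads were called in the Δ17/Δ17 comparison. *Smad6* read 37.8, 34.6 and 34.2 CPM in noncystic and 40.5, 48.2 and 48.5 CPM in cystic *Pkd2* Δ17/Δ17 mice (log2 fold change of 0.36 ± 0.092 SE, edgeR, adjusted p = 0.0079). *Smad7* read 46.5, 46.9 and 45.2 CPM against 60.9, 63.04 and 53.8 CPM (log2 fold change of 0.36 ± 0.098 SE, edgeR, adjusted p = 0.013), a call lost without mouse 29 (adjusted p = 0.062). That these were called with one *Pkd2* genotype and not with the other does not show a difference: in the test of the interaction *Smad6* had a log2 fold change of 0.26 ± 0.13 (SE; edgeR, adjusted p = 0.63) and *Smad7* a log2 fold change of 0.25 ± 0.14 (SE; edgeR, adjusted p = 0.67).

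**Figure D5:**
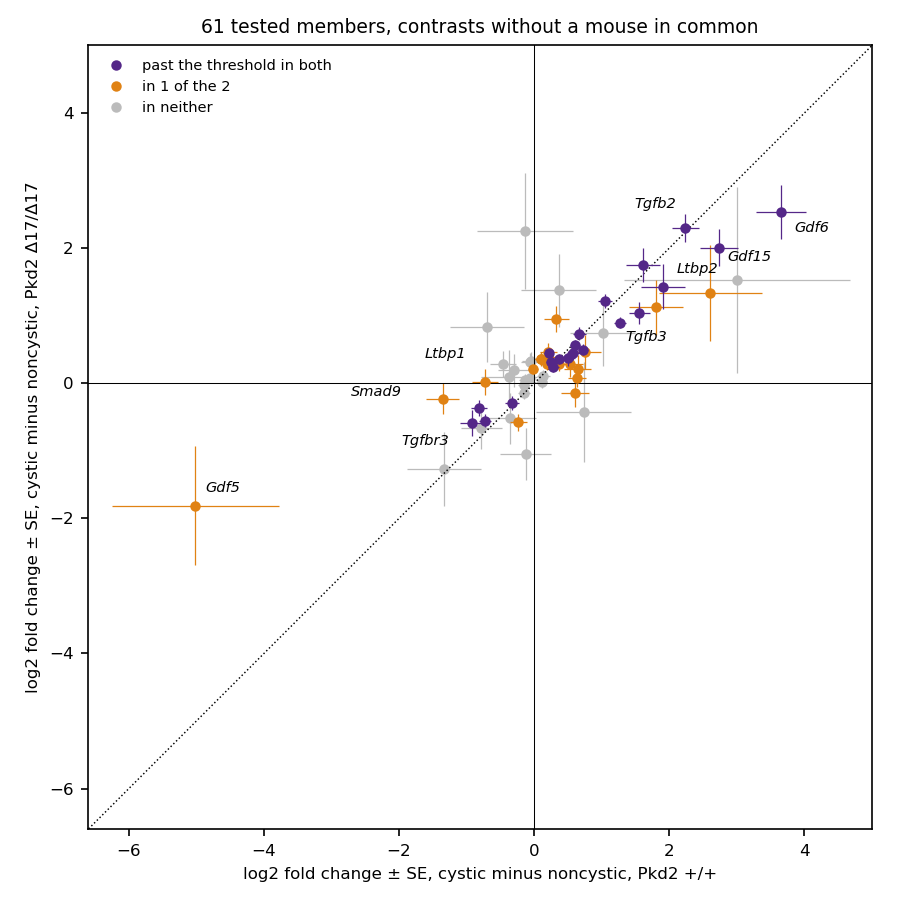
Log2 fold change ± SE of the 61 tested members between cystic and noncystic kidneys, with *Pkd2* +/+ on the horizontal and *Pkd2* Δ17/Δ17 on the vertical axis, and equality as a dotted line. The 21 members called in both lie in the same-sign quadrants, and *Smad9* and *Ltbp1* lie near 0 on the vertical axis.

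The interaction, the test of whether the cystic difference itself depended on the *Pkd2* genotype, called none of the 61 members by edgeR, limma-trend with library totals or DESeq2, with 13, 17 and 12 at an unadjusted p under 0.05. Of all tested genes 0.0122% were called by edgeR, and 2053 of 24642 had an unadjusted p under 0.05 by edgeR. The smallest unadjusted p among members were those of *Smad9* (log2 fold change of 1.12 ± 0.34 SE, edgeR, adjusted p = 0.34), *Tgfbr2* (log2 fold change of -0.38 ± 0.12 SE, edgeR, adjusted p = 0.37) and *Bmp3* (log2 fold change of -0.56 ± 0.18 SE, edgeR, adjusted p = 0.39). *Ltbp1* (log2 fold change of 0.75 ± 0.27 SE, edgeR, adjusted p = 0.46) passed without mouse 26.

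The edited motif pairs with the seed of the miR-17 family, bases 2 to 8 of the mature microRNA, in capitals here. The miR-17-5p sequence is shown because the deletion in *Pkd2* removes a match to it, and the members' own 3′-UTRs were searched for the same match, the letters GCACTTT, on the transcribed strand. The mature sequence is from RefSeq (GRCm38.p6).
miR-17-5p: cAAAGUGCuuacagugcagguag

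Of the 61 tested members 9 hold this match in their longest annotated 3′-UTR (14.8%), against 2280 of 16820 tested genes with an annotated 3′-UTR (13.6%). The median length of these 3′-UTRs was 1728 bases for the members and 1231 for the tested genes, and the shares are not adjusted for length. They are *Gdf11*, *Bmpr2*, *Tgfbr2*, *Bambi*, *Smad2*, *Smad5*, *Smad6*, *Smad7* and *Id4*. Of the 5 members called between the cystic genotypes only *Tgfbr2* holds one. The sites below show the match in capitals with its neighbouring bases, for 6 of the 9 members, and the sites of *Bambi*, *Smad2* and *Smad7* are not shown here. All lie in the last exon of the transcript, from transcripts of GENCODE M21 on GRCm38.
*Tgfbr2*, chr9:116090074-116090080, minus strand: caataacgtttGCACTTTattaatgcctg
*Bmpr2*, chr1:59870686-59870692, plus strand: ttttaagttttGCACTTTtgtttagtctt
*Bmpr2*, chr1:59874362-59874368, plus strand: ggtatcacactGCACTTTtactctgttag
*Smad5*, chr13:56738256-56738262, plus strand: cttttcattttGCACTTTtatgggtgact
*Smad6*, chr9:63953285-63953291, minus strand: acaagaaagacGCACTTTggcttgtaatt
*Gdf11*, chr10:128883515-128883521, minus strand: acttaccacggGCACTTTatggacataaa
*Id4*, chr13:48265197-48265203, plus strand: tattaaaaaggGCACTTTttgccttttgg

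In *Tgfbr2* and *Gdf11* the match is followed by an A, as an 8-mer. In *Tgfbr2* it starts 298 bases after the stop codon in a 3′-UTR of 6085 bases. In *Bmpr2* the first match starts 201 bases after the stop codon and the second 3877. Which set had the higher median, members with or without the match, differed between comparisons, and no test was made. Between the cystic genotypes the median log2 fold change was 0.17 over the 9 members with a match (0 called higher, 1 lower) and -0.048 over the 52 without (2 higher, 2 lower). Between cystic and noncystic *Pkd2* +/+ kidneys the medians were 0.11 (3 higher, 0 lower) and 0.27 (22 higher, 7 lower). With *Pkd2* Δ17/Δ17 they were 0.36 (5 higher, 0 lower) and 0.28 (19 higher, 5 lower). For the deletion in noncystic kidneys they were -0.069 and -0.011, and for the interaction 0.25 and -0.009. A match is a description of letters and shows no binding.

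Promoters of the members, 250 bases before to 50 after the RefSeq start, were searched on both strands for the letters GGCGCC, which BMP Smads are known to bind, and GTCTAGAC, the palindrome of TGF-beta Smads. The table held 60 start windows of 48 members. GGCGCC was found in 15 of the 60 windows (25%), belonging to 13 members, against 3898 of 32851 windows in the table (11.9%). Overlapping windows of *Ltbp4* and of *Smad5* were each counted. The base composition of the windows was not compared, and the shares carry no test. The windows of *Id2*, *Id4*, *Smad9* and *Bmpr2* are among those that hold it, and those of *Id3*, *Smad1* and *Tgfbr2* among those that do not. No window was available for *Id1*, so its promoter was not searched. GTCTAGAC was found in 1 of the 60, that of *Smad6* (1.67%), against 70 of all (0.213%). Both words are palindromes, and they do not overlap each other.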

How the data were processed

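Whole-kidney RNA of 12 mice was sequenced. The authors trimmed paired reads with Trim Galore 0.6.3, aligned them to GRCm38 with STAR 2.5.3a and deposited raw counts per gene (Ensembl release 94). The strand column used is not given in the sources used here, so overlapping genes are uncertain. No separate litters are stated, and mouse numbers pair no samples. Here the counts were tested with edgeR 4.0.16 (R 4.3.3) by its quasi-likelihood test, with TMM factors, one mean per group over all mice and 8 residual degrees of freedom. The cutoff was an average log2CPM of -3, and p-values were adjusted by Benjamini-Hochberg over 24642 genes. Unnamed genes (343, 0.0225% of counts) could not be members under the name rule. For the tests they were subject only to the same cutoff as all other genes. The test was checked on simulated data.

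Values per mouse are given for at most 24 called members with the smallest adjusted p in cystic against noncystic *Pkd2* +/+ kidneys, every member called in another contrast between genotypes, the most abundant member of each role and the 4 *Id* genes. Other members named outside that rule were chosen after their values were seen. One tested member and one gene of the TGF-beta induced list are counted but not reported by name here. The members and lists were chosen with earlier results of these data known. Limma-trend with library totals (limma 3.58.1), DESeq2 1.42.0, other scalings and cutoffs, *Xist* as covariate and leaving out each mouse were the alternatives.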

Additional observations from a re-analysis of the deposited data

How the results depend on the processing

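Between cystic and noncystic *Pkd2* +/+ kidneys, 22 to 39 members were called under the alternatives, 23 to 31 when 1 mouse was left out. Between the cystic genotypes 5 became 13 with no cutoff on low counts, 0 in a fit of the compared groups only, 0 at an adjusted p under 0.01, 1 without mice 27 and 30 and 0 to 7 when 1 mouse was left out. In noncystic kidneys no cutoff gave 2 calls (*Gdf15* and *Id1*). For cystic against noncystic *Pkd2* Δ17/Δ17 kidneys 29 became 19 at an adjusted p under 0.01 and 22 to 28 when 1 mouse was left out. The interaction gave 3 calls with no cutoff (*Bambi*, *Gdf15* and *Ltbp1*) and 0 to 1 when 1 mouse was left out. Leaving out mice 27 and 30 was chosen after seeing the data.

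In cystic against noncystic *Pkd2* +/+ kidneys signs turned for uncalled members. With library totals, by limma-trend and by edgeR in that order, the log2 fold change was 0.031 and 0.026 for *Bmp7*, 0.139 and 0.138 for *Id3*, 0.018 and 0.013 for *Id2*, and 0.086 and 0.104 for *Id4*. When 1 mouse was left out it ran from -0.064 to 0.008 for *Id3* and from -0.207 to 0.082 for *Id4*, and it was 0.004 for *Id4* with *Xist* as covariate. Between the cystic genotypes, leaving out mice 27 and 30 turned the signs of uncalled *Inha* (-0.027), *Inhba* (-0.043), *Acvr1* (-0.025), *Acvr2a* (-0.071) and *Smad4* (0.030). The causes were not tested. The values of *Gdf5*, *Gdf6*, *Bmp8b* and *Smad9* rest on few reads.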
